A study of Mus musculus with 12 samples.

Results

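Complement genes are described here in the retinas of C57BL/6J (WT) mice, of mice infected with the AAV2.7m8 vector pU6-shPax6-GFP (sh*Pax6*) and of *Jnk3*-/- (JNK3 KO) mice, each after an injection of PBS or of NMDA into the eye. The 9 members, *C1qa*, *C1qb*, *C1qc*, *C1ra*, *Serping1*, *C4b*, *C3*, *Cfb* and *C3ar1*, were taken by an exact match of the gene name among the 55487 genes of the deposited gene table, and all 9 were among the 16471 genes that passed the filter on low values. Each of the 6 groups had 2 RNA-seq libraries, 12 in all, and each library was made from pooled poly(A) RNA of more than 3 retinas. The eyes received a volume of 1 μL, either PBS alone or NMDA at 40 mM (40 nmol), an agonist that overactivates glutamate receptors and kills retinal ganglion cells (RGCs), and the vector was given as 2 μL to mice of 2 months. The U6 promoter of the vector drives the hairpin RNA against *Pax6* in any infected cell, and no library of the shScramble vector is among the 12. Infection and knockdown therefore cannot be told apart. The time between NMDA and collection is not given in the sources used here, nor whether the 2 libraries of a group came from separate animals, so the p-values measure only the spread between these libraries.

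The complement system is a cascade of proteins of the innate immune system. In its classical pathway, C1q binds a surface and activates the proteases C1r and C1s, which cleave C4 and C2 into an enzyme that cleaves C3. The alternative pathway, which includes factor B, amplifies C3 cleavage. C3 fragments tag a surface for uptake by phagocytes that carry complement receptors, and the small fragment C3a signals through its own receptor. In the nervous system C1q is made mainly by microglia and C3 mainly by reactive glia and myeloid cells, and both are known for tagging synapses for removal in the developing visual system and in models of glaucoma.

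The 3 C1q genes lie next to each other on chromosome 4 of GRCm38, with 3616 bases between *C1qb* and *C1qc* and 2851 bases between *C1qc* and *C1qa*, and each is a protein-coding gene on the minus strand (*C1qb* at chr4:136880129-136886187, *C1qc* at chr4:136889804-136893065 and *C1qa* at chr4:136895917-136898803). *C3* (chr17:57203970-57228136), *C4b* (chr17:34728380-34743882) and *Cfb* (chr17:34856374-34862518) are on the minus strand of chromosome 17. *C3ar1* (chr6:122847138-122856161, minus) and *C1ra* (chr6:124512405-124523443, plus) are on chromosome 6, and *Serping1* (chr2:84765387-84775444, minus) is on chromosome 2. The promoters of *C1qb* and *C3* are shown, a pair chosen because their values moved in different ways in the same libraries. The RefSeq sequences of GRCm38.p6, available here for 5 of the 9 members, give the 250 bases before the start of *C1qb* (chr4:136886201-136886450, minus strand) and of *C3* (chr17:57228137-57228386, minus strand). Capitals mark matches to GAGGAA, the core bound by the myeloid factor PU.1, or to TTNNGNAA, a loose form of the C/EBP motif, on either strand.
*C1qb*: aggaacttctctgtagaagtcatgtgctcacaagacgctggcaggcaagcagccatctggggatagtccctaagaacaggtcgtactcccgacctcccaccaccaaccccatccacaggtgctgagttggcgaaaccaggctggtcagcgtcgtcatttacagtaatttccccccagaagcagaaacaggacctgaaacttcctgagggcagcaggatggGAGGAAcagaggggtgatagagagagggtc
*C3*: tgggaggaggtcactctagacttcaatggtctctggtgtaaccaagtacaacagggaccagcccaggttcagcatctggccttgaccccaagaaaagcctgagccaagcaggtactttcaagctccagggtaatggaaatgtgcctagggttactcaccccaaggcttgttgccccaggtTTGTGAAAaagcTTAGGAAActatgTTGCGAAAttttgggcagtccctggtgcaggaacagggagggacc
The *C1qb* window held 1 match to GAGGAA and 0 to TTNNGNAA, and the *C3* window held 0 and 4, of which 2 overlapped fully on opposite strands. Among the other members with a sequence, *C1qc* held 1 and 1, *C1ra* 0 and 2, and *C3ar1* 0 and 0. Of all 32851 promoter windows of the same length, 23.3% held GAGGAA and 36.8% held TTNNGNAA, so both motifs are common, and a match describes the letters only.

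Values are FPKM, the number of sequenced fragments relative to transcript length and library size, which can be compared between genes. A gene is said to have risen or fallen where limma's test on log2(FPKM + 0.1), in 1 model of the 6 groups, gave a Benjamini-Hochberg adjusted p under 0.05 over all 16471 genes and a log2 difference above 1 in size. For *Pax6* the FPKM values were 173.48 and 177.30 with PBS in WT but 94.56 and 92.84 with PBS in sh*Pax6* retinas. After NMDA they were 55.42 and 53.81 against 67.52 and 58.73. *Mapk10*, which encodes JNK3, had 42.79 and 50.72 FPKM with PBS in WT against 9.47 and 8.75 FPKM in JNK3 KO retinas, while the NMDA libraries of WT (8.98 and 6.00 FPKM) and JNK3 KO (6.65 and 13.77 FPKM) overlapped. With PBS each targeted gene was thus lower in its own group than in WT. After NMDA *Pax6* was higher in both sh*Pax6* than in both WT libraries, and *Mapk10* overlapped. The groups are named as labelled. The WT NMDA libraries stood apart, with FPKM values summing to 805627 and 820180 against 541210 to 576922 in the other 10. Their log2 difference from WT PBS depended on transcript length, with a median of 0.84 for genes under 1 kb and -1.07 for genes over 4 kb. For genes named as called in WT retinas, the scales that end the call are therefore given. RGC markers (10 genes) summed to between 540.00 and 561.03 FPKM with PBS and 299.12 and 319.32 FPKM with NMDA in WT retinas. These sums were 159.28 to 160.57 and 39.26 to 46.67 FPKM in sh*Pax6*, and 513.50 to 555.15 and 125.34 to 128.13 FPKM in JNK3 KO retinas. The sum of the RGC markers was thus lower after NMDA in all 3 genotypes, but not every marker fell. Of the 10 markers 7 fell in WT, 8 in sh*Pax6* and 6 in JNK3 KO retinas, against 20.9%, 4.94% and 1.87% of all genes tested. The part of RGCs in the complement values was not tested. Rod markers (8 genes) summed to between 21009.52 and 36519.53 FPKM over the 12 libraries.

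In sh*Pax6* retinas 6 of the 9 complement genes rose after NMDA and 0 fell. In WT retinas 1 rose and 2 fell, and in JNK3 KO retinas 0 rose and 3 fell. Among all genes tested, the share that rose or fell was 8.64% and 4.94% in sh*Pax6*, 14.2% and 20.9% in WT, and 0.777% and 1.87% in JNK3 KO retinas. The WT counts of the 9 genes thus lie near the background, and on TPM they were 0 and 5. The median log2 difference of the 9 genes was 1.62 in sh*Pax6*, -0.63 in WT and -0.62 in JNK3 KO retinas, and that of all genes tested was 0.10, -0.09 and -0.01. The WT median depended on the scale. It was the value of *C4b*, which was -1.20 on TPM and 0.37 once each library's trend on transcript length was removed. All 9 genes had both NMDA libraries above both PBS libraries in sh*Pax6* retinas, as did 35.0% of all genes tested. With the WT NMDA libraries left out of the fit, the counts were 6 and 0 in sh*Pax6* and 0 and 3 in JNK3 KO retinas.

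**Figure D1:**
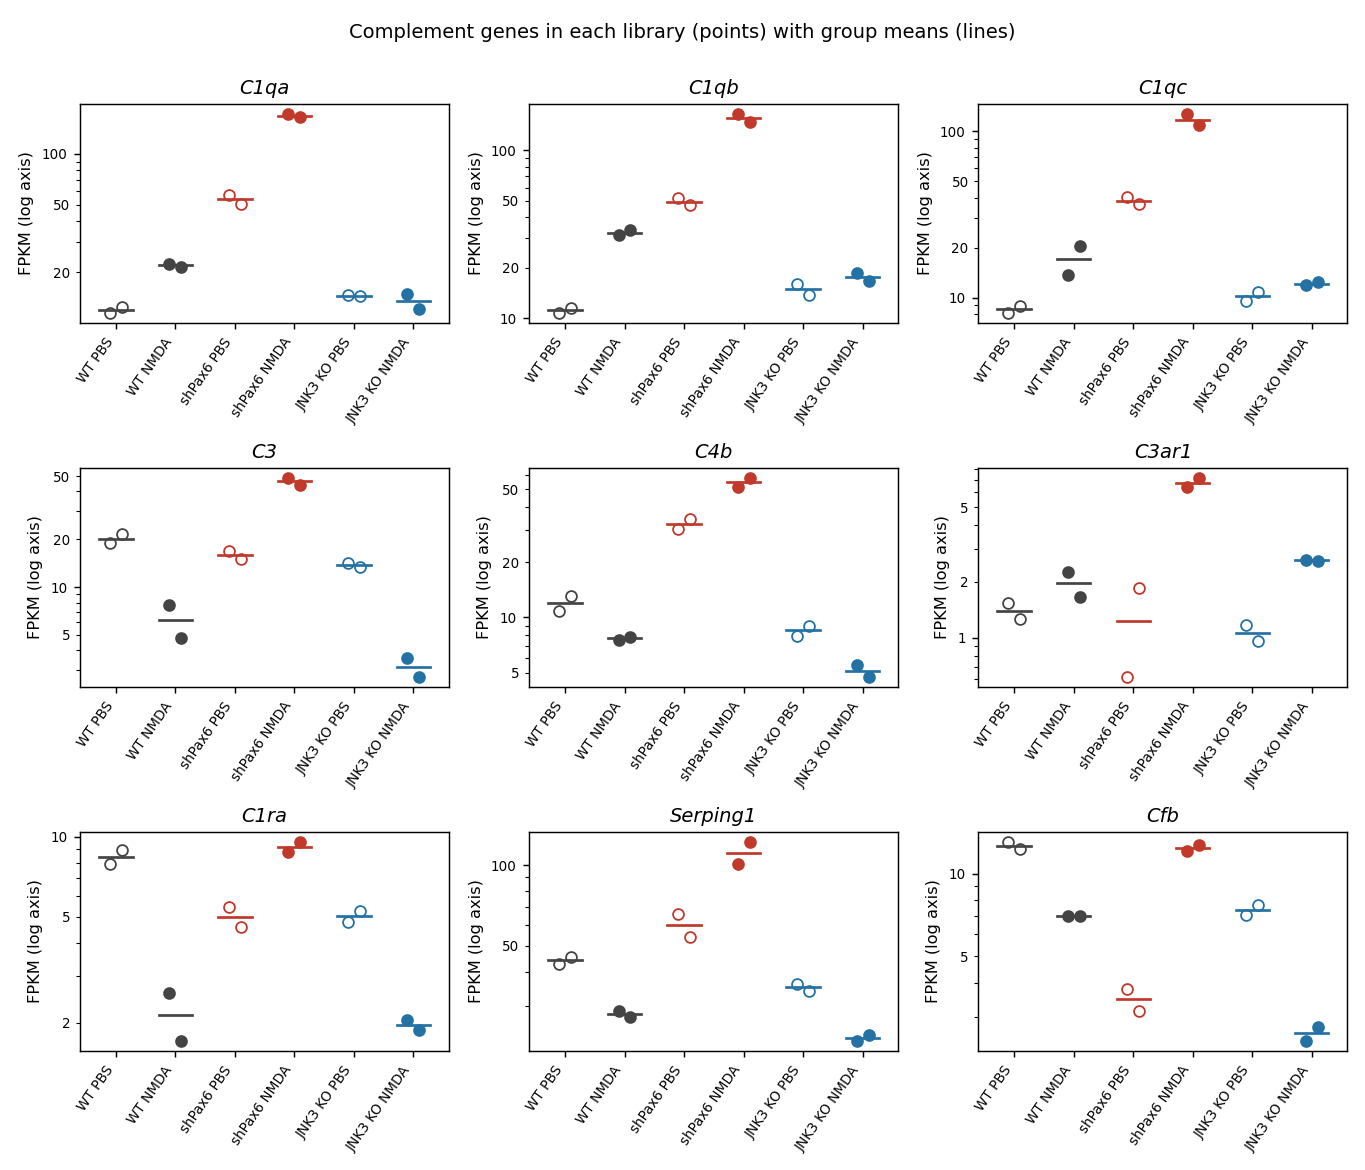
FPKM of the 9 complement genes on log axes in each of the 12 libraries, with open points for PBS, filled points for NMDA and a line for the mean of 2 libraries. The sh*Pax6* NMDA libraries were highest for every gene except *C1ra* and *Cfb*, where they overlapped with WT PBS, and *C3*, *C1ra* and *Cfb* were lower after NMDA in WT and JNK3 KO retinas.

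*C1qa*, *C1qb* and *C1qc* encode the A, B and C chains that together form C1q, the recognition molecule of the classical pathway. *C1qa* was listed at 11.51 and 12.47 FPKM in WT PBS, 21.50 and 22.44 in WT NMDA, 50.78 and 57.06 in sh*Pax6* PBS retinas, 164.59 and 171.62 in sh*Pax6* NMDA, 14.38 and 14.69 in JNK3 KO PBS, and 12.17 and 14.91 FPKM in JNK3 KO NMDA libraries. Both sh*Pax6* groups lay above all other libraries, and the 2 JNK3 KO groups overlapped. *C1qb* was listed at 10.82 and 11.49 FPKM in WT PBS, 31.21 and 33.56 in WT NMDA, 47.25 and 51.74 in sh*Pax6* PBS retinas, 146.27 and 163.34 in sh*Pax6* NMDA, 13.84 and 16.07 in JNK3 KO PBS, and 16.75 and 18.72 FPKM in JNK3 KO NMDA libraries. No 2 neighbouring groups overlapped, although the JNK3 KO groups were less than 1 FPKM apart. *C1qc* was listed at 8.10 and 8.95 FPKM in WT PBS, 13.72 and 20.33 in WT NMDA, 36.44 and 40.15 in sh*Pax6* PBS retinas, 109.15 and 126.85 in sh*Pax6* NMDA, 9.54 and 10.81 in JNK3 KO PBS, and 11.91 and 12.36 FPKM in JNK3 KO NMDA libraries. The order of the groups was the same as for *C1qb*, with the WT NMDA libraries the widest apart relative to their mean.

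After NMDA the 3 C1q genes rose by nearly the same amount in sh*Pax6* retinas, with log2 differences of 1.64 for *C1qa* (standard error 0.11), 1.64 for *C1qb* (0.10) and 1.62 for *C1qc* (0.17). Their adjusted p-values by limma's test were 8.15e-06, 7.52e-06 and 0.000148. In WT retinas *C1qb* rose by 1.53 (adjusted p = 2.18e-06 by limma's test), while *C1qa* (0.87) and *C1qc* (0.96) stayed under the threshold on size at adjusted p-values of 8.63e-05 and 0.000939. This rise of *C1qb* was 0.96 on TPM and 0.70 once each library's trend on transcript length was removed, both below the threshold. The values of *C1qa* and *C1qc* became 0.30 and 0.40 on TPM and 0.01 and 0.20 with the trend removed. Under quantile normalization *C1qc* was 1.11 and passed the threshold (adjusted p = 0.000271 by limma's test). In JNK3 KO retinas the log2 differences were -0.11 for *C1qa* (95% interval -0.35 to 0.13), 0.25 for *C1qb* (0.01 to 0.48) and 0.25 for *C1qc* (-0.13 to 0.64), with adjusted p-values of 0.603, 0.188 and 0.42 by limma's test.

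The 3 chains kept similar proportions where their sum was highest. The sum of the 3 genes was 30.43 and 32.91 FPKM in WT PBS and 420.01 and 461.81 FPKM in sh*Pax6* NMDA libraries, and the *C1qb* to *C1qa* ratio was 0.940 and 0.921 in the former and 0.889 and 0.952 in the latter. In WT NMDA libraries the ratio was 1.39 and 1.56, and in JNK3 KO NMDA libraries 1.26 and 1.38. The main transcripts of the 2 genes have 1040 and 1088 bases, so the chains differ little in length.

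The gene of the first protease fell in the WT and JNK3 KO retinas, where none of the C1q genes fell. *C1ra* encodes C1r, the protease that C1q activates. It was listed at 7.88 and 8.95 FPKM in WT PBS, 1.71 and 2.58 in WT NMDA, 4.57 and 5.45 in sh*Pax6* PBS retinas, 8.76 and 9.53 in sh*Pax6* NMDA, 4.79 and 5.27 in JNK3 KO PBS, and 1.87 and 2.05 FPKM in JNK3 KO NMDA libraries. The sh*Pax6* NMDA and WT PBS libraries overlapped at the top, and the WT NMDA and JNK3 KO NMDA libraries overlapped at the bottom. *C1ra* fell by 1.95 on the log2 scale in WT (standard error 0.21, adjusted p = 3.92e-05 by limma's test) and by 1.32 in JNK3 KO retinas (adjusted p = 0.00552). Its fall in JNK3 KO retinas was no longer called without JNK3 KO NMDA replicate 2, and that in WT retinas stayed above 1 in size on TPM (-2.53) and with the length trend removed (-1.68). In sh*Pax6* retinas its log2 difference of 0.86 was below the threshold on size (adjusted p = 0.0137). *C1s1*, which encodes the partner protease C1s, was listed at 2.99 and 4.12 FPKM in WT PBS against 0.68 and 0.94 FPKM in WT NMDA libraries, a fall of 2.00 (adjusted p = 0.00032 by limma's test) that was kept on the other 3 scales. Its log2 difference was 0.56 in sh*Pax6* (adjusted p = 0.195) and -0.27 in JNK3 KO retinas (adjusted p = 0.652).

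*Serping1* encodes C1 inhibitor, which blocks C1r and C1s, and was the most abundant of the 9 genes in 4 of the 6 groups. It was listed at 42.98 and 45.36 FPKM in WT PBS, 27.19 and 28.74 in WT NMDA, 53.83 and 65.78 in sh*Pax6* PBS retinas, 100.84 and 121.51 in sh*Pax6* NMDA, 33.89 and 36.24 in JNK3 KO PBS, and 22.21 and 23.34 FPKM in JNK3 KO NMDA libraries. No neighbouring groups overlapped, and within each genotype the NMDA libraries were on 1 side of the PBS libraries. None of its 3 responses passed the threshold on size, with log2 differences of 0.89 in sh*Pax6* (95% interval 0.64 to 1.15), -0.66 in WT (-0.92 to -0.40) and -0.62 in JNK3 KO retinas (-0.88 to -0.36). The adjusted p-values by limma's test were 0.000439, 0.000815 and 0.0101. In sh*Pax6* retinas *Serping1* passed without sh*Pax6* PBS replicate 1 or without sh*Pax6* NMDA replicate 1, and in WT retinas on TPM (-1.23) and with the length trend removed (-1.04).

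*C4b* encodes C4, which the C1 proteases cleave. It was listed at 10.79 and 13.14 FPKM in WT PBS, 7.53 and 7.84 in WT NMDA, 30.44 and 34.36 in sh*Pax6* PBS retinas, 51.57 and 57.20 in sh*Pax6* NMDA, 7.96 and 9.01 in JNK3 KO PBS, and 4.75 and 5.51 FPKM in JNK3 KO NMDA libraries. The 2 sh*Pax6* groups stood above the other 8 libraries and apart from each other. The responses were 0.75 in sh*Pax6*, -0.63 in WT and -0.72 in JNK3 KO retinas, all below the threshold on size, at adjusted p-values of 0.00307, 0.00302 and 0.0113 by limma's test. The WT value was -1.20 on TPM and turned to 0.37 with the length trend removed.

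The transcript values behind *C4b* differed in WT NMDA libraries from those in the other groups. C4b-201, the protein-coding transcript of 5379 bases, went from 10.62 and 10.41 FPKM in WT PBS to 1.35 and 1.65 FPKM in WT NMDA libraries. C4b-203, a retained-intron transcript of 749 bases, went from 0.17 and 1.75 FPKM to 6.06 and 6.20 FPKM in the same libraries. In sh*Pax6* retinas both were higher after NMDA, C4b-201 at 43.78 and 47.79 against 27.78 and 28.66 FPKM, and C4b-203 at 7.80 and 8.48 against 2.37 and 3.96 FPKM. *C4a*, a near-identical copy 65209 bases away on chromosome 17, was listed at 3.58 and 4.77 FPKM in WT PBS, 11.21 and 14.19 in WT NMDA and 1.71 and 2.08 FPKM in sh*Pax6* NMDA libraries, and it rose by 1.59 in WT retinas (adjusted p = 0.00167 by limma's test), a call lost with the length trend removed (0.68). Its highest transcript is a retained-intron form of 526 bases, and how the reads were split between *C4a* and *C4b* is uncertain. The sum of both genes was 14.37 and 17.91 FPKM in WT PBS, 18.74 and 22.03 in WT NMDA, 33.10 and 38.72 in sh*Pax6* PBS retinas, and 53.28 and 59.28 FPKM in sh*Pax6* NMDA libraries, so the sh*Pax6* libraries were high with either count.

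**Figure D2:**
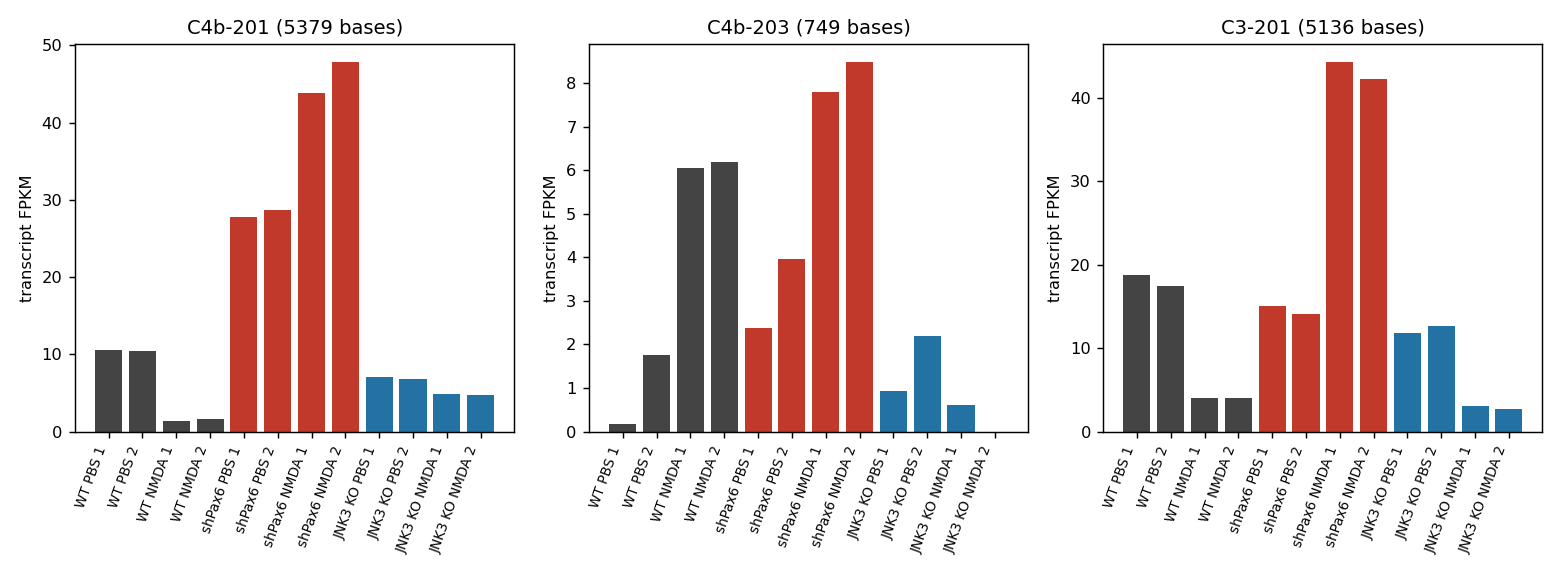
Transcript FPKM on linear axes from 0, a bar for each of the 12 libraries, of C4b-201, C4b-203 and C3-201, with WT in grey, sh*Pax6* in red and JNK3 KO in blue. In WT NMDA libraries the long C4b-201 was listed at 1.35 and 1.65 FPKM and the short C4b-203 at 6.06 and 6.20 FPKM, and C3-201 was highest in the sh*Pax6* NMDA libraries.

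*C3* encodes the component on which all pathways converge, and it moved in opposite directions among the genotypes. It was listed at 18.82 and 21.46 FPKM in WT PBS, 4.77 and 7.71 in WT NMDA, 15.01 and 16.88 in sh*Pax6* PBS retinas, 44.20 and 48.37 in sh*Pax6* NMDA, 13.35 and 14.27 in JNK3 KO PBS, and 2.73 and 3.57 FPKM in JNK3 KO NMDA libraries. The 3 PBS groups lay between 13.35 and 21.46 FPKM, the sh*Pax6* NMDA libraries above this range and the other NMDA libraries below it. *C3* rose by 1.53 in sh*Pax6* retinas (standard error 0.21, adjusted p = 0.000745 by limma's test), and fell by 1.71 in WT (adjusted p = 0.000102) and by 2.11 in JNK3 KO retinas (adjusted p = 0.000569). The fall in WT was 2.29 in size on TPM and 0.77 with the length trend removed, the latter below the threshold. The long protein-coding transcript C3-201 (5136 bases) carried most of the signal. It had 18.82 and 17.46 FPKM in WT PBS, 4.02 and 4.00 in WT NMDA, 44.27 and 42.25 in sh*Pax6* NMDA, and 3.09 and 2.73 FPKM in JNK3 KO NMDA libraries. The short C3-203 (554 bases) had 3.69 and 0.77 FPKM in the WT NMDA libraries, and the gap between these libraries lay in C3-203.

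*Cfb* encodes factor B, the protease of the alternative pathway that joins C3b. It was listed at 12.34 and 13.05 FPKM in WT PBS, 7.01 and 7.03 in WT NMDA, 3.15 and 3.80 in sh*Pax6* PBS retinas, 12.10 and 12.76 in sh*Pax6* NMDA, 7.10 and 7.68 in JNK3 KO PBS, and 2.45 and 2.76 FPKM in JNK3 KO NMDA libraries. The sh*Pax6* NMDA libraries overlapped with WT PBS, and the sh*Pax6* PBS libraries were lower than all others but JNK3 KO NMDA. The transcript values of *Cfb* also shifted in WT retinas. Cfb-201, a protein-coding transcript of 2737 bases, had 7.15 and 6.91 FPKM in WT PBS and 0.00 and 0.42 FPKM in WT NMDA libraries. Cfb-208, with 905 bases, had 0.00 and 0.24 FPKM and then 2.71 and 3.45 FPKM. Cfb-201 also differed between the JNK3 KO PBS libraries, at 4.91 and 0.02 FPKM. *Cfb* rose by 1.81 in sh*Pax6* (standard error 0.14, adjusted p = 2.21e-05 by limma's test) and fell by 1.47 in JNK3 KO retinas (adjusted p = 0.000422), and its value of -0.85 in WT retinas was below the threshold on size (adjusted p = 0.000609) but passed it on TPM (-1.42). The neighbour *C2*, whose annotated gene ends 85 bases from *Cfb* and which encodes the classical counterpart of factor B, was listed between 0.23 and 2.46 FPKM over the 12 libraries.

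*C3ar1*, the receptor of the C3a fragment, had the lowest mean FPKM of the 9 genes in every group except JNK3 KO NMDA, where *C1ra* was lower, and the largest standard errors. It was listed at 1.26 and 1.54 FPKM in WT PBS, 1.66 and 2.26 in WT NMDA, 0.62 and 1.85 in sh*Pax6* PBS retinas, 6.40 and 7.12 in sh*Pax6* NMDA, 0.96 and 1.17 in JNK3 KO PBS, and 2.58 and 2.61 FPKM in JNK3 KO NMDA libraries. The sh*Pax6* PBS libraries overlapped with those of WT PBS and JNK3 KO PBS, which did not overlap with each other, and the sh*Pax6* NMDA libraries were above all others. The FPKM steps of genes with 1 transcript place the values of *C3ar1* at an estimated 64 to 696 fragments per library, against 236 to 3416 for *C1qa*. *C3ar1* rose by 2.53 in sh*Pax6* retinas (standard error 0.42, adjusted p = 0.00189 by limma's test), a value that was between 1.81 and 3.25 with single libraries left out, and the call was lost with a spread taken from the sh*Pax6* libraries alone. Its values in WT (0.45, 95% interval -0.50 to 1.40) and JNK3 KO retinas (1.22, 0.27 to 2.16) had adjusted p-values of 0.387 and 0.107 by limma's test. With a spread taken from the JNK3 KO libraries alone, the JNK3 KO value was called as a rise (adjusted p = 0.0494 by limma's test). The WT value was -0.09 on TPM and 1.17, past the threshold, with the length trend removed.

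**Figure D3:**
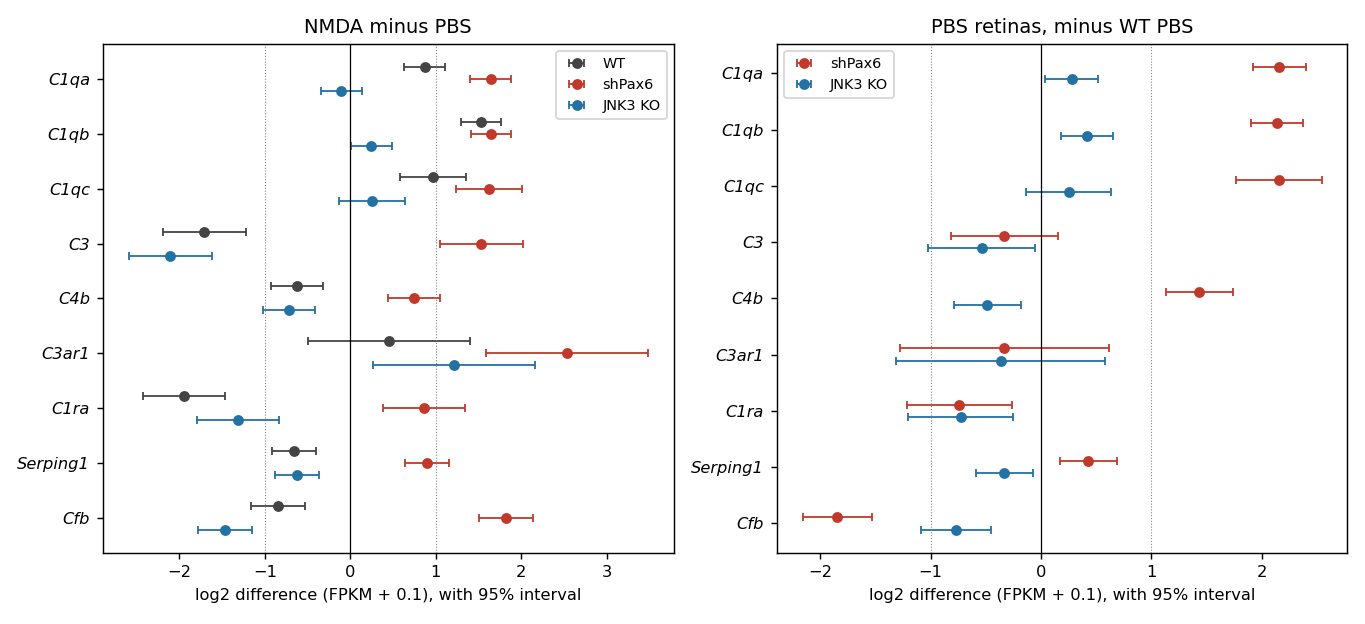
Log2 differences of the 9 complement genes with 95% intervals from the limma model, for NMDA minus PBS in each genotype (left) and for PBS retinas minus WT PBS (right). Dotted lines mark the threshold of 1 in size. *C3*, *C1ra*, *C4b*, *Serping1* and *Cfb* had values above 0 in sh*Pax6* and below 0 in WT and JNK3 KO retinas on the deposited scale, and the WT value of *C4b* was 0.37 with the length trend removed.

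The differences between the responses were tested directly. WT retinas had a lower response than sh*Pax6* retinas for 6 of the 9 genes and higher for 0, where 21.7% and 10.3% of all genes tested were lower and higher. The 6 were *C3* (-3.24, standard error 0.30), *C1ra* (-2.81, 0.30), *Cfb* (-2.66, 0.20), *C3ar1* (-2.08, 0.59), *Serping1* (-1.55, 0.16) and *C4b* (-1.37, 0.19), with adjusted p-values by limma's test between 1.23e-05 for *Cfb* and 0.0167 for *C3ar1*. *C1qa* (-0.77) and *C1qc* (-0.65) had adjusted p-values of 0.00244 and 0.0487 below the threshold on size, and both passed it on TPM and with the length trend removed. For *C1qb* the difference was -0.11, with a 95% interval from -0.45 to 0.22. The calls of *C3*, *C1ra*, *Cfb* and *Serping1* were kept in each alternative setting tried. That of *C4b* was lost under quantile normalization and with the length trend removed, and that of *C3ar1* was lost in 7 alternatives, among them those without WT PBS replicate 1, without WT NMDA replicate 2 and without sh*Pax6* NMDA replicate 2.

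The response was higher in sh*Pax6* than in JNK3 KO retinas for 8 of the 9 genes and lower for 0, against 6.61% and 2.17% of all genes tested. The difference was 3.64 for *C3* (standard error 0.30), 3.29 for *Cfb* (0.20), 2.18 for *C1ra* (0.30), 1.75 for *C1qa* (0.15), 1.51 for *Serping1* (0.16), 1.46 for *C4b* (0.19), 1.40 for *C1qb* (0.15) and 1.36 for *C1qc* (0.24), with adjusted p-values by limma's test between 1.69e-05 for *Cfb* and 0.00569 for *C1qc*. The value of *C3ar1* was 1.32 (95% interval -0.02 to 2.66, adjusted p = 0.163). This comparison does not use the WT libraries. The count was 8 without the WT NMDA libraries in the fit, 8 on TPM and 8 with the length trend removed. With no filter on low values the count was 7, as *C1qc* was not called (adjusted p = 0.0671 by limma's test).

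Between WT and JNK3 KO retinas the response differed for 1 gene, higher in WT, where 15.5% of all genes tested were higher and 20.1% lower. The gene was *C1qb* (1.28, standard error 0.15, adjusted p = 9.03e-05 by limma's test), whose call was lost on TPM and with the length trend removed. The gene called and its direction depended on the scale. On TPM the 1 call was *C1ra*, lower in WT (-1.21, adjusted p = 0.00816), and with the length trend removed *C3* (1.45, adjusted p = 0.00599) and *C4b* (1.20, adjusted p = 0.00136) were higher in WT. *C1qa* (0.98, adjusted p = 0.000518) lay just under the threshold on size and passed it without WT PBS replicate 2, without WT NMDA replicate 2 or without JNK3 KO NMDA replicate 1, which moved the count to 2. On the deposited scale the 95% intervals were -0.29 to 1.08 for *C3*, -0.34 to 0.52 for *C4b*, -0.40 to 0.33 for *Serping1* and -1.30 to 0.04 for *C1ra*. All 3 of these comparisons share libraries, so their values are not independent of each other.

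Before NMDA, 4 of the 9 genes were higher and 1 was lower in sh*Pax6* PBS than in WT PBS retinas, against 0.522% and 3.9% of all genes tested. The median of the 9 genes was 0.43 where that of all genes was -0.06. *C1qa*, *C1qb* and *C1qc* were higher by 2.16, 2.14 and 2.15 on the log2 scale, that is by 4.50, 4.44 and 4.49 times in group means, at adjusted p-values of 6.78e-06, 6.78e-06 and 7.58e-05 by limma's test. *C4b* was higher by 1.43 (standard error 0.13, adjusted p = 0.000181), and *Cfb* was lower, at -1.84 (standard error 0.14, adjusted p = 6.04e-05). *Serping1* (0.43) and *C1ra* (-0.74) had adjusted p-values of 0.0329 and 0.0428 below the threshold on size, and *C3* (-0.33, 95% interval -0.82 to 0.15) and *C3ar1* (-0.33, -1.28 to 0.61) missed both thresholds. The 5 calls were kept in each alternative setting tried. With both steps together, the mean of *C1qa* in sh*Pax6* NMDA libraries was 14.0 times that in WT PBS libraries, and those of *C1ra* and *Cfb* were 1.09 and 0.979 times.

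In JNK3 KO PBS retinas 0 of the 9 genes passed both thresholds against WT PBS, where 0.103% of all genes tested were higher and 0.127% lower. By limma's test 7 of the 9 had an unadjusted p under 0.05, as did 15.1% of all genes tested, *C1qa* and *C1qb* with higher and *C3*, *C4b*, *C1ra*, *Serping1* and *Cfb* with lower values, and the lowest adjusted p was that of *Cfb* (-0.77, adjusted p = 0.0367). The C1q genes had values of 0.28 (95% interval 0.04 to 0.52), 0.42 (0.18 to 0.65) and 0.25 (-0.14 to 0.64).

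**Figure D4:**
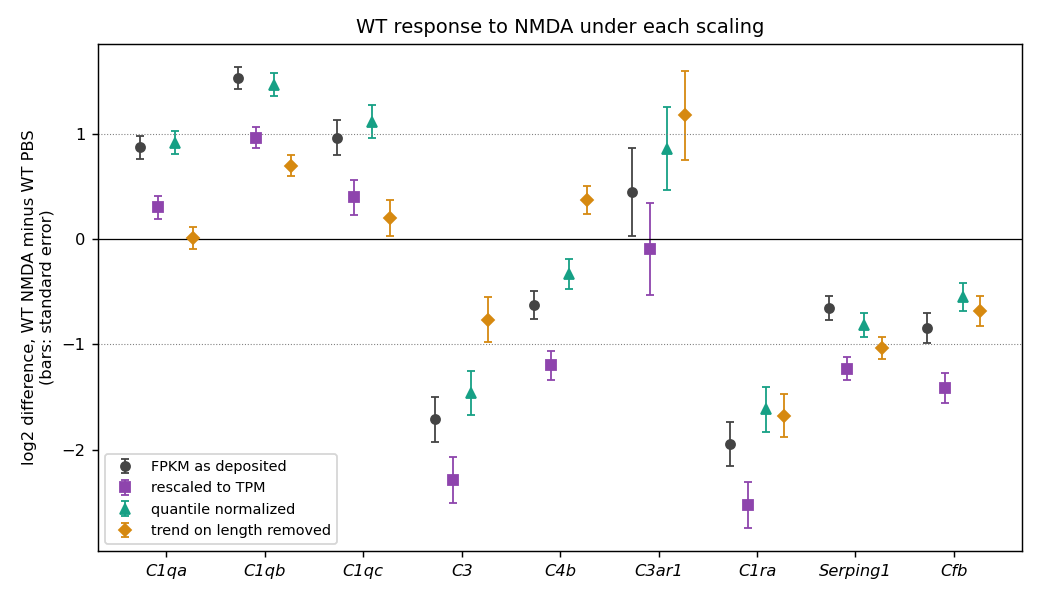
Log2 difference of WT NMDA minus WT PBS for the 9 complement genes on the deposited FPKM scale, on TPM, after quantile normalization and with each library's trend on transcript length removed, with standard errors. *C1ra* stayed below -1 on all 4 scales, *C4b* and *C3ar1* crossed 0, and *C1qb* passed 1 on 2 of them.

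Other genes of the pathway were followed from a list of 45, of which 22 passed the filter. In sh*Pax6* retinas 6 of the 22 rose and 2 fell after NMDA, in WT retinas 4 rose and 5 fell, and in JNK3 KO retinas 0 rose and 3 fell. Over all genes tested the shares that rose and fell were 8.64% and 4.94%, 14.2% and 20.9%, and 0.777% and 1.87%, so the WT counts lie near the background. The medians of the 22 genes were 0.46, -0.03 and -0.22. The 7 genes of the terminal pathway (*Hc* and *C6* to *C9*), whose products form the membrane attack complex, all failed the filter, with a highest value of 0.91 FPKM for *C8g*. *Cfd*, which encodes factor D, was listed at 0 in all libraries. Of the lectin pathway only *Colec11* was tested, at 0.03 and 0.27 FPKM in WT PBS and 0.82 and 1.44 FPKM in WT NMDA libraries, a rise of 2.44 (adjusted p = 0.0201 by limma's test) whose call was lost with the length trend removed (1.83).

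All 5 other receptor genes tested rose in sh*Pax6* retinas after NMDA, and 3 of them fell in JNK3 KO retinas. *Itgam*, which encodes the alpha chain of complement receptor 3, was listed at 8.52 and 8.90 FPKM in WT PBS, 3.20 and 4.23 in WT NMDA, 3.50 and 4.07 in sh*Pax6* PBS retinas, 9.06 and 10.31 in sh*Pax6* NMDA, 6.33 and 6.97 in JNK3 KO PBS, and 2.37 and 2.39 FPKM in JNK3 KO NMDA libraries. Like *C3* it rose in sh*Pax6* (1.33) and fell in WT (-1.22) and JNK3 KO retinas (-1.44), at adjusted p-values of 0.000502, 0.000236 and 0.0013 by limma's test. The WT call of *Itgam* was lost under quantile normalization (-0.87) and with the length trend removed (-0.40). *Itgb2*, its beta chain, and *Itgax*, the alpha chain of complement receptor 4, rose in sh*Pax6* (2.20 and 1.36) and fell in JNK3 KO retinas (-1.22 and -1.20), with adjusted p-values between 0.000911 and 0.0436. *C5ar1*, the receptor of C5a, was listed at 0.46 and 1.00 FPKM in sh*Pax6* PBS and 3.35 and 6.01 FPKM in sh*Pax6* NMDA libraries and rose by 2.55 (adjusted p = 0.00075). *Cd93*, whose product is a C1q-receptor-related membrane protein, rose by 2.41 (adjusted p = 0.000574). Before NMDA, *Itgam* (-1.18), *C5ar1* (-1.91) and *Cd93* (-1.65) were lower in sh*Pax6* PBS than in WT PBS retinas, at adjusted p-values of 0.00204, 0.00687 and 0.0084, where the C1q genes were higher.

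Among the other regulators, *Csmd1* and *Csmd3*, long genes whose products inhibit complement in neurons, fell by 1.69 and 1.98 in WT retinas, where both values were -0.52 and not called with the length trend removed. *Csmd3* also fell by 1.35 in sh*Pax6* retinas. *Vtn*, which encodes the terminal inhibitor vitronectin, was listed at 428.79 and 453.18 FPKM in WT PBS and 966.31 and 994.54 FPKM in WT NMDA libraries, and rose by 1.15 (adjusted p = 6.21e-08 by limma's test). This call was lost on TPM (0.58), with the length trend removed (0.76) and under quantile normalization, where the value was -0.21. *Cfp*, which encodes properdin, the stabilizer of the alternative pathway enzyme, rose in WT (1.06, adjusted p = 0.00568) and sh*Pax6* retinas (1.303, adjusted p = 0.0048), and the WT call was lost on TPM (0.49) and with the length trend removed (0.59). *Cd59b*, which encodes an inhibitor of the membrane attack complex, was listed at 0.51 and 3.10 FPKM in sh*Pax6* PBS and at 0 in both sh*Pax6* NMDA libraries.

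Markers of immune cells moved in part with the complement genes. Bulk retina cannot tell fewer cells of a type from less RNA per cell. The 10 microglia markers summed to 33.15 to 38.10 FPKM in WT PBS, 47.08 to 48.84 in WT NMDA, 63.40 to 76.41 in sh*Pax6* PBS, 119.69 to 141.66 in sh*Pax6* NMDA, 40.12 to 41.65 in JNK3 KO PBS and 37.45 to 39.54 FPKM in JNK3 KO NMDA libraries, with no marker at 0 in both libraries of a group. The order of the groups by this sum was that of the C1q sum at the top, with both sh*Pax6* groups and then WT NMDA. Of 9 microglia markers tested, 3 were higher in sh*Pax6* PBS than in WT PBS retinas (*Tmem119* by 1.42, *Fcrls* by 2.80 and *Trem2* by 2.04) and 0 were lower, with a median of 0.94, and 3 rose after NMDA in sh*Pax6* retinas. Among all genes tested 0.522% were higher and 3.9% lower in the first comparison, and 8.64% rose in the second. In WT retinas, where 14.2% of all genes tested rose and 20.9% fell, 2 of these markers rose after NMDA and 2 fell. The 2 that fell were *P2ry12* and *Tmem119*, which mark resting microglia, by 1.86 and 1.44. Both falls were lost under quantile normalization, and of the 2 that rose, *Trem2* (2.34) was kept on the other 3 scales and *Aif1* (1.80) was lost with the length trend removed (0.85).

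The 10 monocyte and macrophage markers gave another order. They summed to 144.09 to 159.22 FPKM in WT PBS, 232.31 to 237.64 in WT NMDA, 50.18 to 51.00 in sh*Pax6* PBS, 374.46 to 389.96 in sh*Pax6* NMDA, 109.45 to 116.61 in JNK3 KO PBS and 89.25 to 89.72 FPKM in JNK3 KO NMDA libraries, and *Cd163* was at 0 in both libraries of 3 groups. *Lyz2* was the largest part of this sum, at 97.70 and 106.33 FPKM in WT PBS and 251.94 and 250.44 FPKM in sh*Pax6* NMDA libraries. Of 9 markers tested, 8 rose and 0 fell after NMDA in sh*Pax6*, 2 rose and 0 fell in WT, and 0 rose and 2 fell in JNK3 KO retinas. Among all genes tested 8.64% rose and 4.94% fell in sh*Pax6*, 14.2% and 20.9% in WT, and 0.777% and 1.87% in JNK3 KO retinas. In sh*Pax6* PBS against WT PBS retinas 1 was higher and 5 were lower, against 0.522% and 3.9% of all genes tested. The C1q genes were higher and *Cfb* and *Itgam* lower in that same comparison. The 10 neutrophil markers summed to 194.57 to 216.85 FPKM in WT PBS and 3.83 to 4.35 FPKM in sh*Pax6* PBS libraries, and to 1936.27 to 1976.08 FPKM in WT NMDA and 60.05 to 68.78 FPKM in sh*Pax6* NMDA libraries. In JNK3 KO retinas the neutrophil markers summed to 136.30 to 150.99 FPKM with PBS and 11.42 to 13.04 FPKM with NMDA. *S100a8* and *S100a9* made up most of the neutrophil sum in WT retinas, with 92.61 and 92.86 FPKM in WT PBS replicate 1. In sh*Pax6* retinas 4 of the 10 neutrophil markers were at 0 in both PBS libraries and 5 in both NMDA libraries. The 5 markers of the retinal pigment epithelium summed to 64.02 to 68.02 FPKM in sh*Pax6* PBS and 13.05 to 14.37 FPKM in sh*Pax6* NMDA libraries, and to between 42.73 and 84.35 FPKM in the other groups. The sum of the 10 Müller glia markers was carried by *Apoe* in sh*Pax6* libraries (979.88 and 916.06 FPKM with PBS). *Apoe* was a smaller part of it in WT PBS libraries (219.48 and 226.46 FPKM). Without *Apoe* the other 9 summed to 653.16 to 653.79 FPKM in WT PBS and 374.77 to 378.15 FPKM in WT NMDA libraries. In sh*Pax6* retinas they summed to 871.91 to 883.53 FPKM with PBS and 715.66 to 739.94 FPKM with NMDA. In JNK3 KO retinas they summed to 719.20 to 722.69 FPKM with PBS and 615.20 to 634.18 FPKM with NMDA. This sum was lower after NMDA in all 3 genotypes, but the single markers did not all follow it. Of the 10 markers tested, 0 rose and 5 fell in WT, 2 rose and 1 fell in sh*Pax6*, and 0 rose and 0 fell in JNK3 KO retinas. The shares of all genes tested were 14.2% and 20.9%, 8.64% and 4.94%, and 0.777% and 1.87%. The median log2 differences of the 10 markers were -0.76, 0.12 and 0.30. With *Apoe* the sum was 1787.97 to 1863.41 FPKM in sh*Pax6* PBS and 2645.42 to 2823.54 FPKM in sh*Pax6* NMDA libraries. The part of each cell type in the complement values was not tested.

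**Figure D5:**
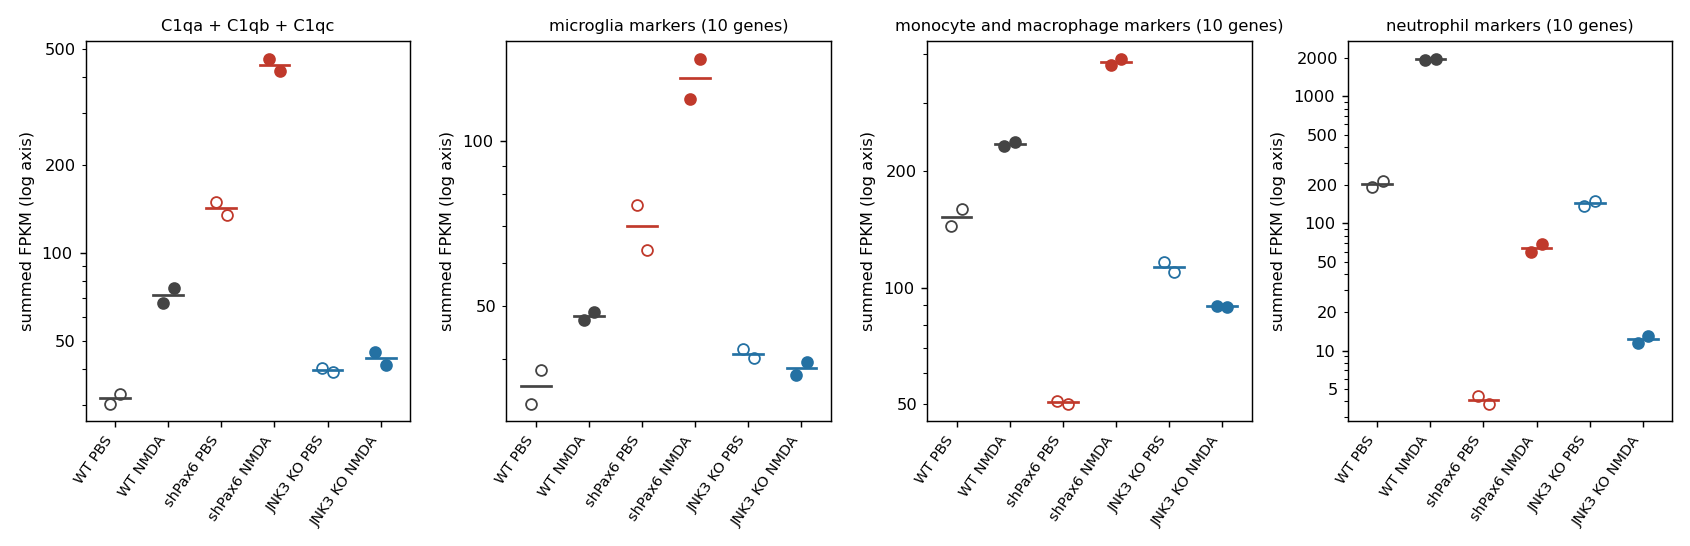
Summed FPKM on log axes in each library for the 3 C1q genes and for 10 markers each of microglia, of monocytes and macrophages and of neutrophils, with open points for PBS, filled points for NMDA and lines for group means. The sh*Pax6* PBS libraries were above WT PBS for C1q and microglia markers and below WT PBS for the other 2 lists.

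Among all protein-coding genes outside the pathway list, *Apoe*, which encodes a lipid carrier made by Müller glia and by activated microglia, had the highest Pearson correlation with *C1qa* (r = 0.992) and *C1qc* (r = 0.987) over the 12 libraries on the log2 scale. *Apoe* had 219.48 and 226.46 FPKM in WT PBS against 1929.76 and 2083.60 FPKM in sh*Pax6* NMDA libraries. The genes most like *C1qb* were *Plekhb1* (r = 0.982), *Apoc1* (r = 0.977) and *Apoe* (r = 0.977). *C3* was most like *Gbp2* (r = 0.984), an interferon-induced GTPase, and *Serpina3n* (r = 0.977), a protease inhibitor, both known as genes of reactive astrocytes. The same 2 genes were the most like *C1ra* (r = 0.945 and 0.947). *Serpina3n* was listed at 181.15 and 184.79 FPKM in WT PBS, 77.36 in both WT NMDA, 316.39 and 339.45 in sh*Pax6* NMDA, and 67.79 and 68.18 FPKM in JNK3 KO NMDA libraries, which is the order of *C3*. *C4b* and *Serping1* shared *Sparc* (r = 0.966 and 0.980), *Cfb* was most like *Slfn4* (r = 0.974), and *C3ar1* was most like *Sox9* (r = 0.968). Within the 9 genes the highest correlations were those among the C1q chains (r = 0.980 to 0.989), of *C4b* with *Serping1* (r = 0.965) and of *C3* with *C1ra* (r = 0.948), and the lowest was that of *C3ar1* with *C1ra* (r = 0.126). These correlations describe 12 libraries that fall into 6 groups, which are shared by every gene, and are given without a test.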

How the data were processed

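The authors made poly(A) libraries with the TruSeq mRNA kit, sequenced them as paired ends of 101 cycles, aligned the reads to GRCm38.p6 with STAR 2.7.1a and quantified genes and transcripts with RSEM 1.3.3 (the submitters' notes also name edgeR 3.36.0 and R 4.1.0). The values deposited by the authors are FPKM per gene and per transcript for the 12 libraries.

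Genes with a mean over 1 FPKM in at least 1 group (16471 of 55487) were tested with limma 3.58.1 in R 4.3.3 on log2(FPKM + 0.1), with 6 group means, all 12 libraries, an intensity trend and Benjamini-Hochberg adjustment over all genes tested, for 8 comparisons. A difference on this scale understates the change of genes with low values. TPM, as an alternative, was FPKM rescaled to equal sums, and the length trend was a lowess curve on transcript length. The test was checked on simulated data. Depth is not given with FPKM. The steps of low values placed it at 21400000 to 27200000 fragments per library, which limits precision for low genes. Positions, strands and transcript lengths came from the GRCm38 annotation (55141 of 55487 genes matched). The genes named are the 9 members, the other genes of the pathway list called in at least 1 NMDA response, up to 3 markers per cell type list and the 3 protein-coding genes most correlated with each member. A pathway gene that this rule would name is counted but not reported here. *C2*, *Cfd*, *C8g*, *Apoe*, *Cd163*, *Lyz2*, *S100a8* and *S100a9* as markers, the microglia markers called and the promoters and transcripts shown were chosen after their values were seen. The members and all lists were chosen with earlier results of these data known. Samples carrying the same replicate number did not deviate together, so no pairing was used.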

Additional observations from a re-analysis of the deposited data

Results flagged for a closer look

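The response to NMDA differed between genotypes, by the limma test of the difference itself, for 15 pairs of gene and comparison. Between WT and sh*Pax6* retinas the response differed by -3.24 for *C3*, -2.81 for *C1ra*, -2.66 for *Cfb*, -2.08 for *C3ar1*, -1.55 for *Serping1* and -1.37 for *C4b* on the log2 scale. Between WT and JNK3 KO retinas it differed by 1.28 for *C1qb*. Between sh*Pax6* and JNK3 KO retinas it differed by 3.64 for *C3*, 3.29 for *Cfb*, 2.18 for *C1ra*, 1.75 for *C1qa*, 1.51 for *Serping1*, 1.46 for *C4b*, 1.40 for *C1qb* and 1.36 for *C1qc*. Groups of 2 libraries are too small to test for a library far from the others.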

How the results depend on the processing

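Of 1773 values of single genes under alternative settings, 1713 kept their direction and their side of the threshold, 17 lost and 27 gained the call, and 16 turned direction, none of which was called on either side. The number of complement genes called after NMDA in WT retinas was 5 on TPM (0 higher and 5 lower) in place of 3. For the difference between the WT and JNK3 KO responses it was 2 in place of 1 under quantile normalization (*C1qa* and *C1qb* higher) and with the length trend removed (*C3* and *C4b* higher, *C1qb* lost), and on TPM the 1 gene was *C1ra*, lower in WT. With single libraries left out, this count ranged from 1 to 2, and a group left with 1 library was assumed to vary like the others. Over the other comparisons the counts ranged from 3 to 4 in WT, 6 to 7 in sh*Pax6*, 2 to 4 in JNK3 KO retinas, 5 to 6 for WT minus sh*Pax6*, 8 to 9 for sh*Pax6* minus JNK3 KO, 5 to 6 for sh*Pax6* PBS and 0 for JNK3 KO PBS. The fit without both WT NMDA libraries was chosen after seeing the data. With a replicate block the counts stayed at 3, 6, 3, 6, 1, 8, 5 and 0 in the 8 comparisons, and same-numbered libraries had correlations of deviations between -0.10 and 0.09 over 15 pairs of groups. The turned values were, on TPM, -0.094 for *C3ar1* in WT and -0.18 for *C3* and -0.50 for *C4b* in WT minus JNK3 KO. With the length trend removed they were 0.37 for *C4b* in WT, 0.012 for *C1qa* in JNK3 KO, and -0.000649 for *C1qa*, -0.17 for *C1qc* and 0.026 for *C3ar1* in WT minus JNK3 KO. Under quantile normalization *C3ar1* was 0.027 in sh*Pax6* PBS. With 1 library left out, values ranged from -0.254 to 0.037 for *C1qa* in JNK3 KO, from -1.05 to 0.38 for *C3ar1* in sh*Pax6* PBS, and, in WT minus JNK3 KO, from -0.050 to 0.232 for *C4b* (also -0.014) and from -0.086 to 0.011 for *Serping1* (also 0.0012 and 0.0023). Over all genes, counts moved by over 1.5 times from 5788 to 3086, 5264 to 3093 and 5865 to 2902 with the length trend removed (WT, WT minus sh*Pax6*, WT minus JNK3 KO), and from 1446 to 800 with no filter (sh*Pax6* minus JNK3 KO). From 2236 it moved to 657 with the spread of the groups compared alone (sh*Pax6*). The JNK3 KO count of 436 was 232 with no filter, 770 by unadjusted p and 213 to 537 with single libraries left out. The sh*Pax6* PBS count of 729 was 478 at a pseudocount of 1, 437 with no filter, 341 with the spread alone, 1118 by unadjusted p and 423 to 1034 with single libraries left out. The JNK3 KO PBS count of 38 was 12 with the spread alone, 216 by unadjusted p and 18 to 58 with single libraries left out. TPM moved the median of all genes in WT from -0.09 to -0.66 and the share of calls that were higher from 40.5% to 13.4%. The causes were not tested.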
